A study of Danio rerio with 14 samples.

Results

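The comparison described here is that of injured lateral rectus (LR) muscle at 18 hours post injury (hpi) with uninjured LR muscle of adult zebrafish. The LR is an extraocular muscle (EOM), the one that turns the eye outward. The injured group, H18, held 5 libraries from LR muscle in which part of the right muscle had been cut away surgically 18 h earlier. The uninjured group, CON, held 4 libraries labelled 0 hpi, and 5 libraries at 9 hpi (H9) are used only where a middle time point is set beside the other values. All fish of the 3 groups carried the actin:GFP transgene, and no other treatment or allele is given in the labels. Every library was made from LR tissue pooled from several fish, cut by laser microdissection from frozen sections of decalcified heads. Such sections can hold whatever lies in or beside the muscle, and the remaining stump of an injured muscle is what H18 stands for.

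All 31014 features of the table were read, and the comparison rests on the 13401 that averaged 1 FPKM or more over H18 and CON. The other 17613 lay below this level. FPKM are fragments per kilobase of transcript, which the authors scaled with upper-quartile normalization. Each feature has 1 FPKM value per group, in which the libraries of the group had been combined before deposit, and no SD or n stands beside it. The authors' own p-values and q-values were not used, so no value below carries a test, and the differences are not set against the spread between libraries. Differences are given as log2((H18 + 0.1) / (CON + 0.1)), a scale that understates the difference of genes with low FPKM. A gene is called higher or lower here when this difference was at least 2-fold, and these words describe the 2 values only. Genes that define skeletal muscle were present in both groups. Skeletal alpha-actin acta1b had 57.5 FPKM in H18 against 1591 FPKM in CON, the muscle creatine kinase gene ckma had 167 FPKM in H18 against 2321 FPKM in CON, and the myogenic regulator myod1 had 16.3 FPKM in H18 against 36.4 FPKM in CON.

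As background, a skeletal muscle fibre is a large multinucleate cell filled with sarcomeres, in which myosin motors pull on actin filaments. Calcium released from the sarcoplasmic reticulum starts each contraction, and mitochondria and glycolysis supply the ATP. Zebrafish EOMs regrow after partial removal, and the residual myocytes are known to give up their contractile apparatus and to re-enter the cell cycle as dedifferentiated myoblasts. Leukocytes enter injured muscle in the same period and clear debris through their lysosomes.

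Of the 13401 genes, 3029 (22.6%) were higher and 3670 (27.4%) were lower in H18, so that 6699 (50%) were past 2-fold and 6702 within it. A difference of at least 4-fold was seen for 1108 genes on the higher side and 1790 on the lower side, and one of at least 16-fold for 199 and 404 genes. The median log2 difference was -0.06, with quartiles at -1.13 and 0.89. All shares and medians of gene lists below are to be read against these values. With the FPKM as deposited the lower side reached farther, with the 5th percentile at -3.32 and the 95th at 2.51 on the log2 scale. A scaling of 1 group shifts both percentiles the same way, so which side reached farther depends on the scaling as well.

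**Figure D1:**
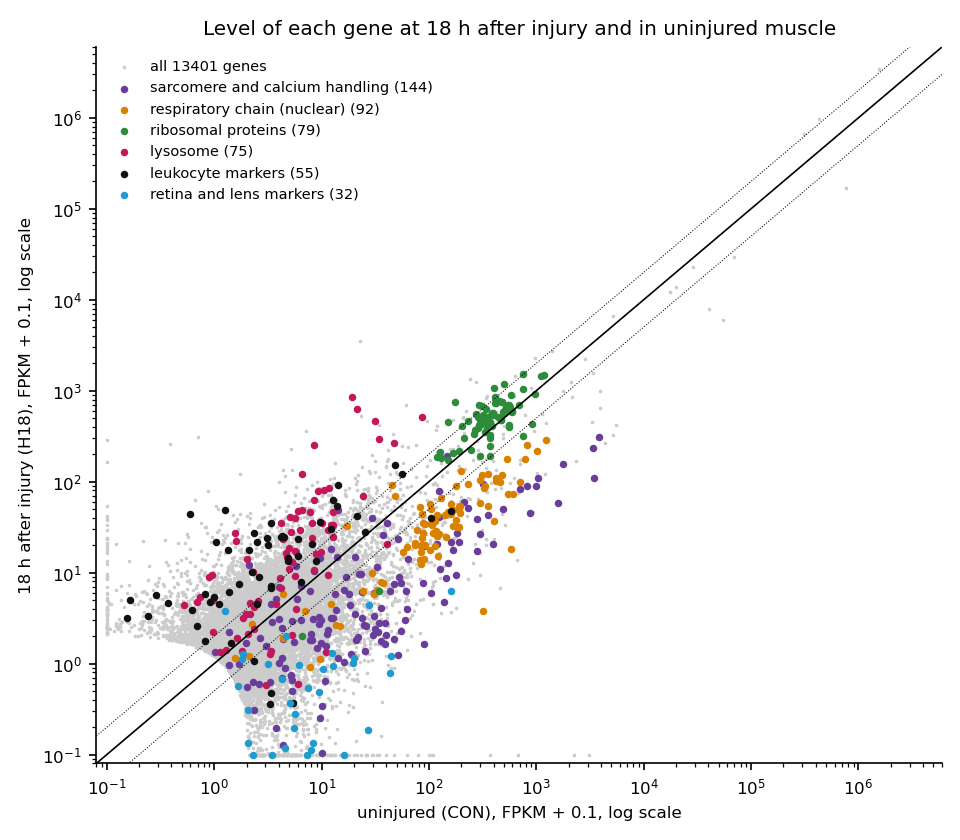
FPKM of each of the 13401 genes in H18 (vertical axis) and CON (horizontal axis), both with 0.1 added and on log scales, with lines for equal levels and for 2-fold differences and with members of chosen gene lists in colour. Genes of the contractile apparatus lie below the lines at high CON levels, whereas most lysosome genes lie above the line of equality.

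A few features carried most of the summed FPKM. LOC101885394, an uncharacterized locus, was listed at 3450240 FPKM in H18 and 1565690 FPKM in CON. LOC101882117, also uncharacterized, was listed at 979916 FPKM in H18 and 431628 FPKM in CON. The third, zgc:158463, is annotated as ribosomal RNA and was listed at 667139 FPKM in H18 and 310648 FPKM in CON. Together with 1 feature of the mitochondrial sequence, which had 168782 FPKM in H18 and 770451 FPKM in CON, they made up 94.9% of the summed FPKM in H18 and 86.4% in CON. Of the genes called, 54.8% were lower with the FPKM as deposited, and this share depended on the scaling. One scaling set the sums of all other features equal after leaving out LOC101885394, LOC101882117 and the mitochondrial feature, the 3 with the highest FPKM in either group. It multiplied H18 by 0.834, and zgc:158463 stayed in and held 70.2% of the H18 sum that was left. With it 2275 genes were higher and 4298 lower, 65.4% of the called genes were lower, and the median of all genes was -0.34. A second scaling, chosen after values had been seen, set the sums of the nuclear protein-coding features equal and multiplied H18 by 1.33. With it 4519 genes were higher and 2819 lower, 38.4% of the called genes were lower, and the median of all genes was 0.35. Whether more genes were higher or lower in H18 therefore has no fixed answer, and a list with a median near 0 has no fixed direction. The median changed sign with H18 scaled by 0.834 for the chromatin regulators and for the p53 and cell death genes. With H18 scaled by 1.33 it changed sign for the early response factors, the matrix and adhesion genes, the antioxidant genes and the markers of endothelium and of fibroblasts, bone and fat.

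Leaving these features and the mitochondrial sequence aside, the FPKM of the 23523 nuclear protein-coding features summed to 149044 in H18 and 197644 in CON, and its make-up differed. The genes of the contractile, calcium, synapse, oxidative and glycolytic lists together (403 genes) took 7.27% of this sum in H18 against 33.7% in CON. The genes of the ribosome, translation and protein folding lists (379 genes) took 34% in H18 against 19.1% in CON. Ribosomal proteins alone took 28.9% in H18 and 16.5% in CON. Lysosome genes took 3.16% in H18 and 0.33% in CON. Fibre genes had the largest shortfall of FPKM in H18. Among them, gapdh, a glycolytic enzyme, had 328 FPKM in H18 against 5194 FPKM in CON, ckmb had 267 FPKM in H18 against 4316 FPKM in CON, and the fast calcium pump atp2a1 had 109.6 FPKM in H18 against 3434 FPKM in CON. The feature nme2b.2, a nucleoside diphosphate kinase, had 422 FPKM in H18 against 5463 FPKM in CON, but its locus in the table runs over 48352554 to 48485649 of chromosome 19 on GRCz10, and reads of other genes inside it cannot be told apart. The largest excess of FPKM in H18 was that of cytoskeletal, lysosomal and ribosomal genes. The cytoplasmic beta-actin gene actb1 had 1331 FPKM in H18 against 239 FPKM in CON, tmsb4x, whose product binds actin monomers, had 1239 FPKM in H18 against 276 FPKM in CON, and the lysosomal protease gene ctsba had 849.6 FPKM in H18 against 19.2 FPKM in CON.

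**Figure D2:**
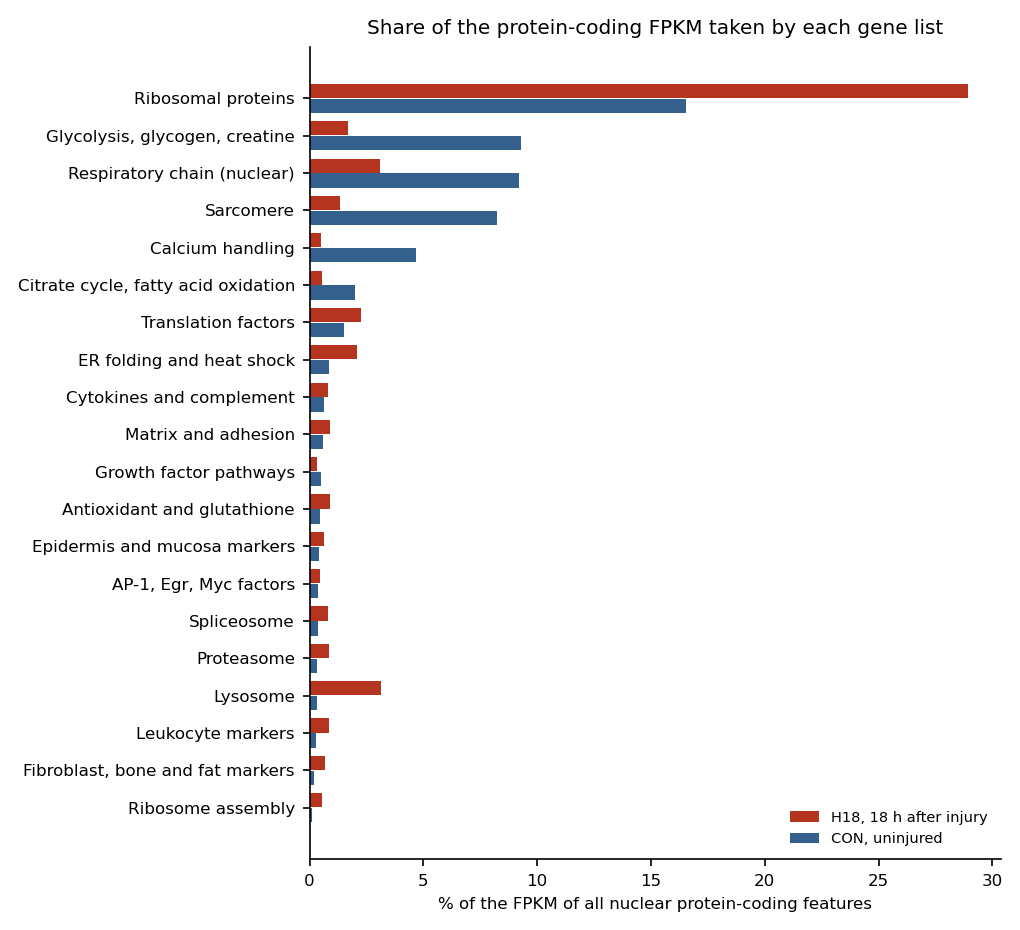
Share of the summed FPKM of nuclear protein-coding features (horizontal axis, percent) taken by the members of the gene lists with larger shares. The bar for H18 is above the bar for CON, and lists with small shares in both groups are not drawn. Ribosomal proteins took 28.9% in H18 and 16.5% in CON, whereas sarcomere genes took 1.35% in H18 and 8.25% in CON.

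Genes that mark other tissues of the head were also measured, and several of them moved with the comparison. Genes of the lens and the photoreceptors, which belong to the eye and not to muscle, were mostly lower in H18. Of 105 listed genes of retina and lens, 32 passed the filter, 1 was higher and 29 were lower, and their FPKM summed to 36.2 in H18 against 517 in CON. Genes that are high in CON alone pass the filter through CON, so this count describes those that passed, and the median of the list was -4.04 with the filter and -1.90 without it. The gamma crystallin crygs1 had 6.12 FPKM in H18 against 161 FPKM in CON, and the rod opsin rho had 0.0843 FPKM in H18 against 26.9 FPKM in CON. The retina and lens genes rbp4l, crybb1l2, cryba2a and arr3a were listed at 0 in H18. Genes of myelinating glia and nerve summed to 119 FPKM in H18 and 452 FPKM in CON, and 13 of 18 that passed were lower, of 39 listed. The myelin gene mbpb had 22.9 FPKM in H18 against 101 FPKM in CON, whereas fabp7b, a fatty acid binding protein of glia, had 13 FPKM in H18 against 0.499 FPKM in CON. Red blood cell genes summed to 171 FPKM in H18 and 291 FPKM in CON, and 8 of 11 that passed were lower, of 19 listed. The alpha-globin gene hbaa1 had 135 FPKM in H18 against 188 FPKM in CON.

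Markers of the surface epithelium differed among themselves. They summed to 955 FPKM in H18 and 867 FPKM in CON, yet 9 of 15 that passed were lower, of 45 listed. The epithelial gene icn had 562 FPKM in H18 against 389 FPKM in CON, and the basal keratin krt5 had 1.18 FPKM in H18 against 15.4 FPKM in CON. Blood vessel genes, of which 6 were lower and 2 higher of 25 that passed, had a sum of 81.1 FPKM in H18 and 90.8 FPKM in CON. The endothelial receptor gene kdrl, which binds Vegf, had 8.52 FPKM in H18 against 9.31 FPKM in CON. Connective tissue, skeleton and fat markers summed to 989 FPKM in H18 and 371 FPKM in CON, with 6 higher and 7 lower of 23 that passed, and 1 gene made most of the H18 sum. This was fabp11a, a fatty acid binding protein, with 701 FPKM in H18 against 60.8 FPKM in CON. Of 24 listed pancreas and gut markers, 10 passed and 9 of these were lower. Here too genes high in CON alone pass the filter through CON, so the count describes those that passed. The median of the list was -3.37 with the filter and -2.05 without it. The exception was apoc1l, an apolipoprotein, which had 28.5 FPKM in H18 against 1.53 FPKM in CON. The chymotrypsin precursor ctrb1 had 0.0319 FPKM in H18 against 9.74 FPKM in CON. In bulk tissue, fewer cells of a type and less RNA per cell cannot be told apart, and the part that these cell types had in the muscle results below was not tested.

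**Figure D3:**
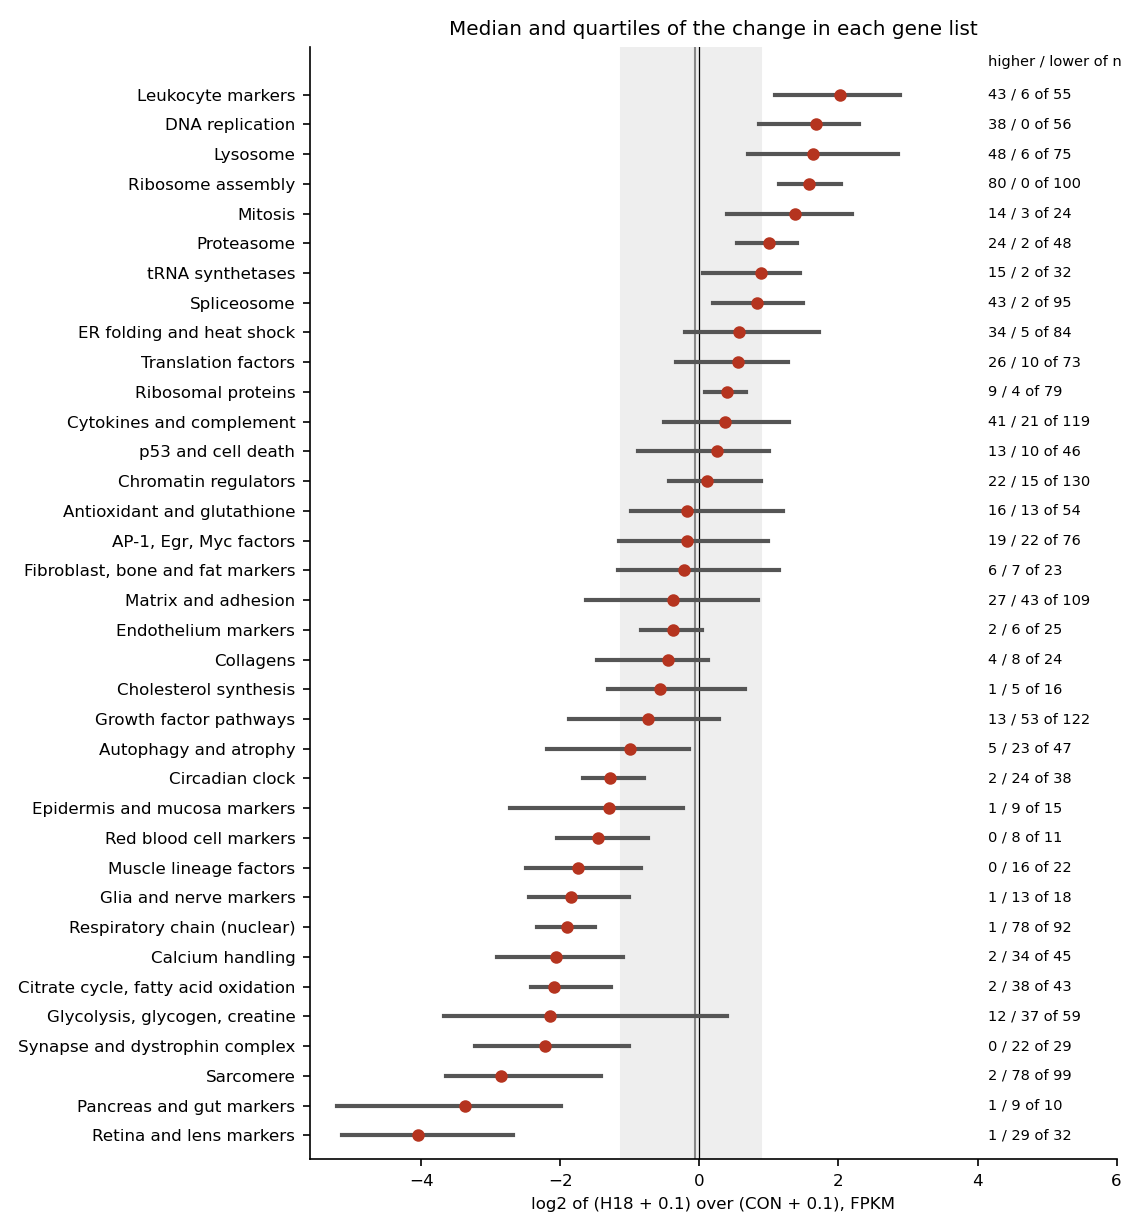
Median log2 difference of H18 over CON (points) with quartiles (lines) for each gene list, with the counts of genes higher and lower of those that passed, and a grey band for the quartiles of all 13401 genes. Retina and lens markers have a median of -4.04 and leukocyte markers a median of 2.02.

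Most genes of the contractile apparatus were lower in H18. Of 115 sarcomere genes in the table, 99 passed, 78 were lower and 2 were higher, with a median log2 difference of -2.85. Actin of the thin filament was represented by actc1b, with 311 FPKM in H18 against 3839 FPKM in CON, and by acta1b, whose log2 difference was -4.79. The fast myosin light chain mylpfa had 158 FPKM in H18 against 1759 FPKM in CON. Among the motors themselves, 10 of 12 myosin heavy chain genes were lower, and their FPKM summed to 109 in H18 against 818 in CON. The giant proteins that hold the filaments in register were lower too. The titin gene ttnb had 9.34 FPKM in H18 against 180.2 FPKM in CON, and ttna, its paralog, had 21.7 FPKM in H18 against 189.6 FPKM in CON. Nebulin, encoded by neb, had 7.57 FPKM in H18 against 88.3 FPKM in CON.

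Some sarcomere genes did not share this direction. The troponins, which make the thin filament sensitive to calcium, were lower for 12 of 17 genes. Fast troponin T tnnt3b had 110.0 FPKM in H18 against 1039 FPKM in CON, and troponin I tnni1 had 0.0034 FPKM in H18 against 10 FPKM in CON, the lowest log2 difference of the list (-6.61). Its relatives tnni1b and tnnt3a were not lower, with 10.4 FPKM in H18 against 8.48 FPKM in CON for tnni1b and 2.15 FPKM in H18 against 1.29 FPKM in CON for tnnt3a. The intermediate filament gene desma had 191 FPKM in H18 against 146 FPKM in CON, and the filamin gene flnca had 39.6 FPKM in H18 against 29.2 FPKM in CON. Only ankrd1a, a mechanosensitive ankyrin repeat protein of the sarcomere, and pdlim3b, a Z-disc adaptor, were higher, and 1 of these 2 was with H18 scaled by 0.834. Ankrd1a had 11.9 FPKM in H18 against 2.03 FPKM in CON, and pdlim3b had 11.9 FPKM in H18 against 5.69 FPKM in CON. A difference between paralogs in either direction carries the uncertainty of how reads that fit both were divided.

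The genes that bring calcium in and out of the cytoplasm followed the same order. Of 45 genes that passed, 34 were lower and 2 were higher (median -2.06, 57 listed). Parvalbumin, a buffer that speeds relaxation, was represented by pvalb4, with 232 FPKM in H18 against 3403 FPKM in CON. The log2 difference of atp2a1 was -4.97, and its regulator sarcolipin, sln, had 1.13 FPKM in H18 against 51.2 FPKM in CON. The release side gave lower values as well. The release channel ryr1a had 8.76 FPKM in H18 against 52.9 FPKM in CON, and the voltage sensor cacna1sa had 4.02 FPKM in H18 against 35.6 FPKM in CON. Calsequestrin, which stores calcium in the reticulum, was represented by casq1a, with 1.75 FPKM in H18 against 47.5 FPKM in CON. The 2 genes higher in H18 were calm3b, encoding calmodulin, with 49.3 FPKM in H18 against 14.1 FPKM in CON, and atp2a2b, the pump form found in the heart and in the reticulum of other cells, with 16.6 FPKM in H18 against 5.73 FPKM in CON. The paralog atp2a2a of the same pump form was lower, with 20.3 FPKM in H18 against 119 FPKM in CON.

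In the list of the neuromuscular synapse and the dystrophin complex, no gene was higher and 22 of 29 were lower (median -2.22, 32 listed). This list also holds the caveolae-associated genes murca and murcb, both of which were lower. All 5 acetylcholine receptor subunits were lower, with a summed level of 8.79 FPKM in H18 against 99.3 FPKM in CON. The alpha subunit chrna1 had 4.13 FPKM in H18 against 39.3 FPKM in CON, and the synaptic kinase gene musk had 2.53 FPKM in H18 against 26.4 FPKM in CON. Acetylcholinesterase, ache, which ends the signal, had 1.92 FPKM in H18 against 67.6 FPKM in CON. Dystrobrevin, dtna, which belongs to the dystrophin complex, had 0.196 FPKM in H18 against 17.3 FPKM in CON. Dystrophin itself, dmd, was closer between the groups, with 7.45 FPKM in H18 against 24.5 FPKM in CON. The laminin receptor chain itga7 lay within 2-fold, with 10 FPKM in H18 against 12.4 FPKM in CON.

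Among the listed genes of the muscle lineage, 16 of 22 were lower and none was higher (median -1.75, 28 listed). The list holds transcription factors and also other genes, such as the fusion gene tmem8c. The late regulator myf6 had 0.56 FPKM in H18 against 19.9 FPKM in CON, with a log2 difference of -4.92. The difference was smaller for the other members of its family, with myog at 8.08 FPKM in H18 and 26.3 FPKM in CON, and with a log2 difference of -1.15 for myod1. The Mef2 factors act with them on muscle promoters, and mef2aa had 7.66 FPKM in H18 against 34.8 FPKM in CON. The satellite cell genes pax7a and pax7b lay within 2-fold, with 1.7 FPKM in H18 against 2.2 FPKM in CON for pax7a and 1.66 FPKM in H18 against 2.57 FPKM in CON for pax7b. The fusion gene tmem8c, which encodes myomaker, was listed at nearly the same level in both groups, with 2.81 FPKM in H18 against 2.8 FPKM in CON.

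**Figure D4:**
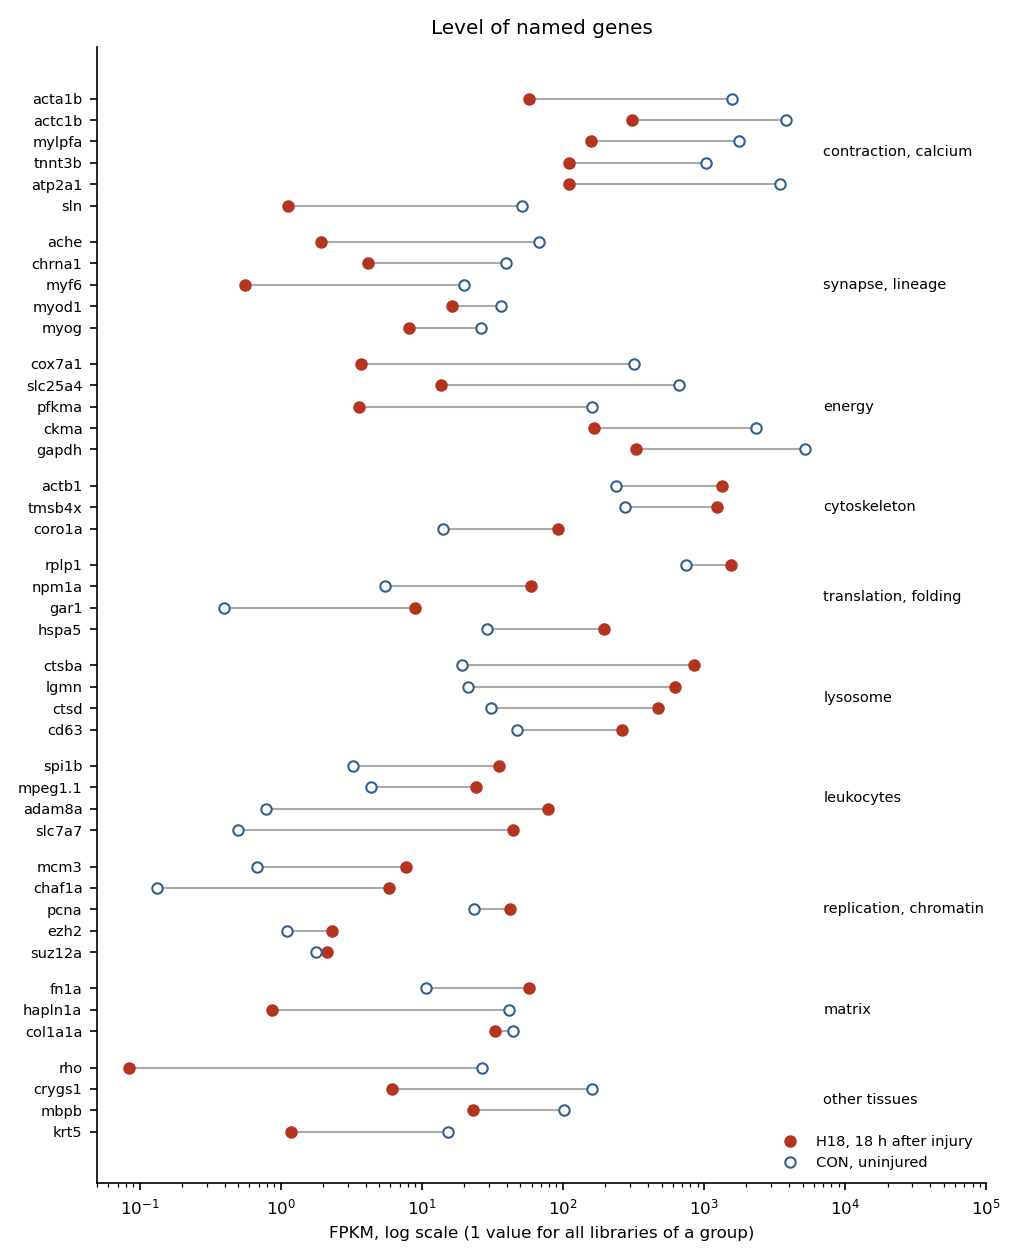
FPKM of chosen genes in H18 and CON, joined by a line, on a log axis. Fibre genes such as acta1b and ckma lie lower in H18, whereas lysosomal and leukocyte genes such as ctsba and spi1b lie higher in H18.

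Mitochondrial energy genes of the nucleus were lower in H18 as a list. Of 92 genes of oxidative phosphorylation, 78 were lower and 1 was higher (median -1.91, 97 listed). This held in the 3 complexes counted separately, with 33 of 36 genes of complex I, 14 of 17 of complex IV and 15 of 17 of the ATP synthase lower. The ATP synthase subunit atp5l had 291 FPKM in H18 against 1235 FPKM in CON. The muscle form of a cytochrome c oxidase subunit, cox7a1, had 3.7 FPKM in H18 against 321 FPKM in CON, the lowest log2 difference of the list (-6.40). Subunit 6a ran the other way for its general form, cox6a1, with 91.5 FPKM in H18 against 44.8 FPKM in CON, which was within 2-fold with H18 scaled by 0.834. The 24 features of the mitochondrial sequence summed to 254295 FPKM in H18 against 1001440 FPKM in CON, and 14 of them were lower, 2 higher and 3 listed at 0 in H18. Most of both sums came from the feature with the highest FPKM, which spans 71 bases and had 168782 FPKM in H18 against 770451 FPKM in CON. The median span was 72.5 bases, and the features of 952 and 1683 bases, the longest, lay within 2-fold. These sums are therefore no measure of the respiratory chain genes.

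The pathways that feed the respiratory chain gave the same picture. Of 43 genes of the citrate cycle and fatty acid oxidation, 38 were lower and 2 were higher (median -2.09, 46 listed). Isocitrate dehydrogenase idh2 had 124.1 FPKM in H18 against 1022 FPKM in CON. The muscle gene cpt1b, whose product admits fatty acids to the mitochondrion, had 1.73 FPKM in H18 against 20.3 FPKM in CON, whereas its liver-type paralog cpt1a had 2.7 FPKM in H18 against 1.52 FPKM in CON. The coactivator ppargc1a, which drives mitochondrial biogenesis in mammals, had 1.7 FPKM in H18 against 14.4 FPKM in CON. The 2 higher genes were suclg2 and ogdhb, and 1 was higher with H18 scaled by 0.834. Suclg2, a subunit of succinyl-CoA ligase, had 8.17 FPKM in H18 against 2.62 FPKM in CON.

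Glycolysis, glycogen and creatine genes split. Of 59 genes, 37 were lower and 12 higher (median -2.15, 65 listed), with 6 higher when H18 was scaled by 0.834 and 14 when it was scaled by 1.33. The muscle phosphofructokinase pfkma, which sets the pace of glycolysis, had 3.58 FPKM in H18 against 159.7 FPKM in CON. The muscle-type phosphorylase pygma, which releases glucose from glycogen, had 12.7 FPKM in H18 against 257 FPKM in CON. On the other side, the enolase eno1a had 161 FPKM in H18 against 56.6 FPKM in CON, the phosphoglycerate mutase pgam1a had 52.3 FPKM in H18 against 12.2 FPKM in CON, and the phosphofructokinase pfkpa had 18.9 FPKM in H18 against 4.13 FPKM in CON. Several of the genes that were higher are forms used outside muscle, which called for a comparison within protein families.

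For 19 families of proteins with a muscle form and a form used in other cells, the muscle share of the summed family FPKM was lower in H18 in 18. The family members were chosen after values had been seen. Of 26 muscle forms that passed, 23 were lower and none was higher (median -3.65). Of 30 other forms, 14 were higher and 6 lower (median 0.79). For enolase the muscle share was 41.2% in H18 against 95.4% in CON. For phosphoglycerate mutase it was 24.3% in H18 and 93% in CON, and for phosphofructokinase 23.2% in H18 and 96.4% in CON. Structural proteins gave the same direction. The muscle share of alpha-actinin, which crosslinks actin, was 39% in H18 and 93.9% in CON. Creatine kinase came mostly from the muscle forms in both groups, with a share of 88% in H18 and 99.6% in CON. The exception among the 19 was elongation factor 1 alpha, whose muscle form was below 1% of the family in both groups. The gene eef1a1l2 was assigned to neither form and left out of that family. The muscle form was also the minor one in CON in some families whose share was lower in H18. Its share in CON was 14.5% for the adenine nucleotide translocator, 5.99% for calpain and 20.5% for the sodium pump. The translocator slc25a5, counted as an other form, had 652 FPKM in H18 against 3933 FPKM in CON. A share within a family does not depend on how the groups are scaled.

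**Figure D5:**
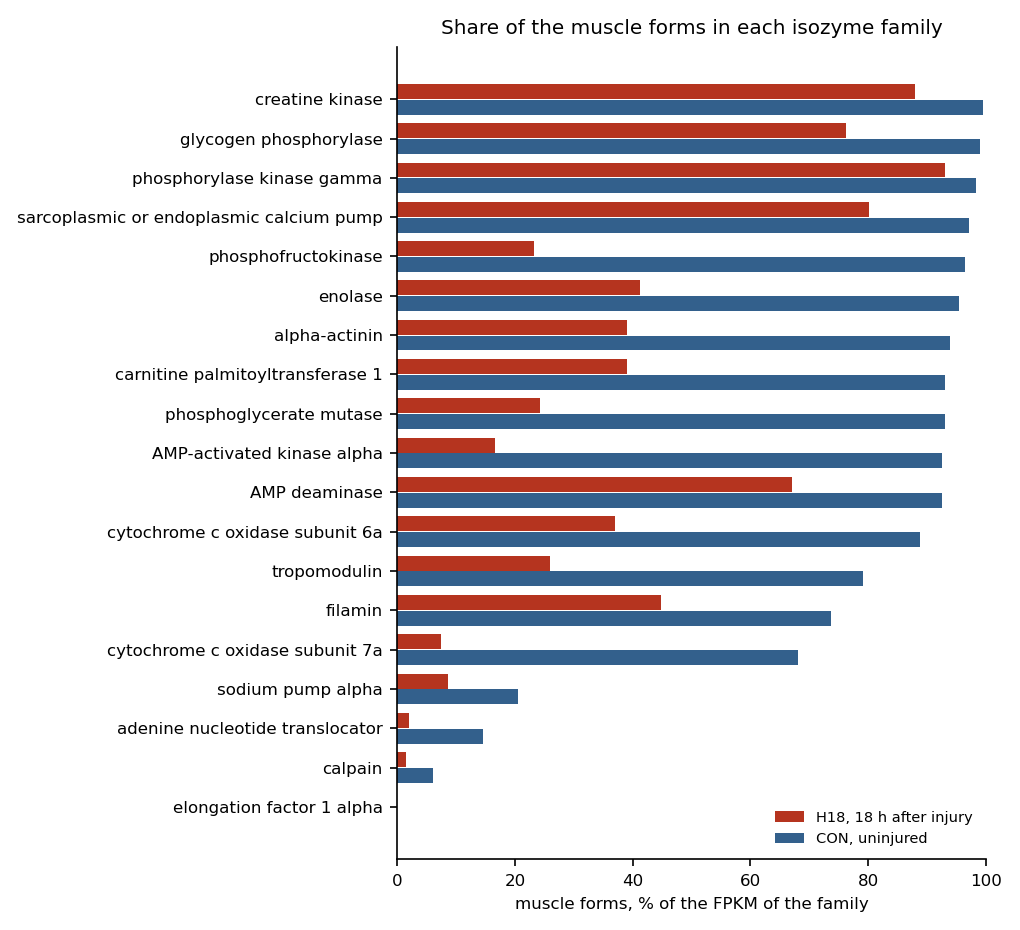
Percent of the summed FPKM of each protein family that came from its muscle form (horizontal axis), with the bar for H18 above the bar for CON. The share was lower in H18 in 18 of 19 families, and that of enolase was 41.2% in H18 against 95.4% in CON.

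The machinery that builds ribosomes was higher in H18. Of 100 assembly genes that passed, 80 were higher and none was lower (median 1.57, 101 listed), with 70 higher when H18 was scaled by 0.834 and 90 when it was scaled by 1.33. The nucleolar proteins had the highest levels. Nucleophosmin, npm1a, had 59.1 FPKM in H18 against 5.47 FPKM in CON, and nucleolin, ncl, had 71.6 FPKM in H18 against 12.2 FPKM in CON. The enzymes that modify ribosomal RNA under the guidance of small nucleolar RNAs were higher as a set, with all 3 box C/D genes and all 4 box H/ACA genes past 2-fold. Fibrillarin, fbl, which methylates ribosomal RNA, had 25.4 FPKM in H18 against 3.53 FPKM in CON. The pseudouridylation partner gar1 had 8.99 FPKM in H18 against 0.396 FPKM in CON, the highest log2 difference of the list (4.20). The polymerase I subunit polr1a had 4.88 FPKM in H18 against 1.88 FPKM in CON.

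The ribosomal proteins themselves differed less. All 79 passed, 9 were higher and 4 lower (median 0.40, 79 listed), with 3 higher when H18 was scaled by 0.834 and 25 when it was scaled by 1.33. The stalk protein rplp1 had 1544 FPKM in H18 against 748 FPKM in CON and was within 2-fold with H18 scaled by 0.834, and its partner gene rplp2l had 761 FPKM in H18 against 176 FPKM in CON. The most abundant small-subunit gene, rps29, lay within 2-fold with 1485 FPKM in H18 against 1185 FPKM in CON, and rps8b was lower with 6.23 FPKM in H18 against 34.2 FPKM in CON. Ribosomal protein genes with near-identical copies are uncertain, because reads that fit several places were divided among them.

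Of the translation factors, 26 of 73 were higher and 10 lower (median 0.56, 79 listed). Elongation factors took opposite sides. Eef1a1l1, which brings aminoacyl-tRNA to the ribosome, had 1089 FPKM in H18 against 389 FPKM in CON, whereas eef1a1l2 had 111 FPKM in H18 against 615 FPKM in CON. The translocase gene eef2b had 412 FPKM in H18 against 120.0 FPKM in CON, whereas eef2l2 had 20.2 FPKM in H18 against 165 FPKM in CON. The listed locus of eef2b spans 445779 bases, and reads of other genes inside it cannot be told apart. Initiation factors included eif4a1a, an RNA helicase, with 52 FPKM in H18 against 14.3 FPKM in CON, and eif5b, which joins the subunits, with 7.71 FPKM in H18 against 1.35 FPKM in CON. Of 32 tRNA synthetases, 15 were higher and 2 lower (median 0.89, 33 listed). The cytoplasmic rars, for arginine, had 14.3 FPKM in H18 against 2.97 FPKM in CON, and the mitochondrial fars2, for phenylalanine, had 2.22 FPKM in H18 against 6.79 FPKM in CON. Spliceosome genes were higher for 43 of 95 and lower for 2 (median 0.82, 97 listed). The core protein snrpd3 of the small nuclear ribonucleoproteins had 13.6 FPKM in H18 against 0.728 FPKM in CON, and the helicase ddx39b had 50.8 FPKM in H18 against 6.88 FPKM in CON. The splicing factor ddx5 was listed at nearly equal levels, 56.2 FPKM in H18 and 56.4 FPKM in CON.

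Protein folding and breakdown were higher in several compartments. Of 84 folding genes, 34 were higher and 5 lower (median 0.57, 88 listed). The chaperone hspa5 of the endoplasmic reticulum, also known as BiP, had 194 FPKM in H18 against 29.1 FPKM in CON, and its membrane-bound neighbour calnexin, canx, had 46.5 FPKM in H18 against 6.82 FPKM in CON. The reticulum genes hyou1 and hsp90b1 were higher as well, with 22.5 FPKM in H18 against 3.69 FPKM in CON for hyou1 and 101 FPKM in H18 against 21.2 FPKM in CON for hsp90b1. In the cytoplasm, hspa8, the constitutive Hsp70, had 513 FPKM in H18 against 206 FPKM in CON, and the chaperonin CCT had 3 of 8 genes higher and none lower. The chaperone partner dnajb6b was lower, with 3.41 FPKM in H18 against 31.4 FPKM in CON. The stress factor ddit3, which follows prolonged reticulum stress, was lower, with 9.58 FPKM in H18 against 21.6 FPKM in CON. The small-heat-shock partner bag3, used in muscle to clear damaged filament proteins, had 10.7 FPKM in H18 against 24.5 FPKM in CON.

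The proteasome and the lysosome, the main routes of protein breakdown, differed in how far they were higher. Of 48 proteasome genes, 24 were higher and 2 lower (median 1, 50 listed), with 15 higher when H18 was scaled by 0.834 and 33 when it was scaled by 1.33. The regulatory particle, which unfolds substrates, had 14 of 23 genes higher, and the core 8 of 19. The subunit psmd1 of the regulatory particle had 31.3 FPKM in H18 against 7.36 FPKM in CON. Of 75 lysosome genes, 48 were higher and 6 lower (median 1.63, 86 listed). The cathepsins, lysosomal proteases, summed to 2465 FPKM in H18 against 156 FPKM in CON, with 10 of 13 higher and none lower. Cathepsin B, ctsba, had a log2 difference of 5.46, and cathepsin D, ctsd, had 470.1 FPKM in H18 against 31.2 FPKM in CON. The protease legumain, lgmn, which activates other lysosomal enzymes, had 622 FPKM in H18 against 21.3 FPKM in CON. The proton pump that acidifies the lysosome had 14 of 20 genes higher and 2 lower, and a summed level of 541 FPKM in H18 against 144 FPKM in CON. Progranulin, grn1, had 122 FPKM in H18 against 6.46 FPKM in CON.

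Genes of autophagy and muscle atrophy did not go with the lysosome. Of 47 genes, 23 were lower and 5 higher (median -1, 56 listed). The ubiquitin ligase fbxo32, a marker of atrophy in mammals, had 4.19 FPKM in H18 against 35.1 FPKM in CON. The autophagosome gene map1lc3b lay within 2-fold, with 9.81 FPKM in H18 against 14 FPKM in CON. The mitophagy receptor bnip3lb had 5.6 FPKM in H18 against 37 FPKM in CON. The cargo receptor sqstm1, by contrast, had 42.4 FPKM in H18 against 13.5 FPKM in CON. The members that were lower include muscle proteins such as klhl41b, a sarcomere-associated adaptor, with 6.68 FPKM in H18 against 33.3 FPKM in CON.

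Most leukocyte markers were higher in H18. Of 55 markers that passed, 43 were higher and 6 lower (median 2.02, 70 listed), and their FPKM summed to 1274 in H18 against 596 in CON. The myeloid factor spi1b had 35.4 FPKM in H18 against 3.26 FPKM in CON, and the macrophage gene mpeg1.1 had 24.3 FPKM in H18 against 4.37 FPKM in CON. The macrophage growth factor receptor csf1ra had 35.5 FPKM in H18 against 9.66 FPKM in CON. The neutrophil enzyme mpx was at 4.92 FPKM in H18 and 0.0635 FPKM in CON. The actin regulator coro1a of leukocytes had 92.6 FPKM in H18 against 14.2 FPKM in CON. The 3 C1q genes, which open the complement cascade and are made by macrophages, were all higher and summed to 137 FPKM in H18 and 34.7 FPKM in CON. Some markers of lymphocytes and antigen presentation had the other direction. The lymphocyte kinase lck had 0.257 FPKM in H18 against 3.17 FPKM in CON, the recombinase rag1 had 0.269 FPKM in H18 against 5.3 FPKM in CON, and the MHC class II chaperone cd74a had 47.6 FPKM in H18 against 159 FPKM in CON. Leukocytes also express the lysosomal, cytoskeletal and ribosomal genes given above, and their part in those differences was not tested.

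Cytokine and complement genes were mixed, with 41 of 119 higher and 21 lower (median 0.36, 223 listed). Ccl34a.4, a chemokine of fish, had 86.1 FPKM in H18 against 17.9 FPKM in CON, and ccl34a.3 was listed at 23.4 FPKM in H18 and at 0 in CON. The ligand gene clcf1, of the interleukin 6 family, had 4.64 FPKM in H18 against 0.00314 FPKM in CON, and crlf1a, its partner in mammals, had 24.5 FPKM in H18 against 0.468 FPKM in CON. The tumour necrosis factor gene tnfb had 3.8 FPKM in H18 against 0.527 FPKM in CON, and tnfrsf11b, which encodes the decoy receptor osteoprotegerin, had 9.87 FPKM in H18 against 0.696 FPKM in CON. Genes of antigen presentation and of lymphoid signals were among those lower. The MHC class I light chain b2m had 169 FPKM in H18 against 398 FPKM in CON, and il15 had 0.424 FPKM in H18 against 5.27 FPKM in CON. The complement gene c4 had 5.69 FPKM in H18 against 40.9 FPKM in CON. This list and the matrix list each share 4 genes with the leukocyte markers.

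Matrix and adhesion genes gave both directions, with 27 of 109 higher and 43 lower (median -0.38, 179 listed). Fibronectin, fn1a, a glycoprotein of provisional matrix, lies on chromosome 9 at 15391600 to 15453527 of GRCz10 and had 57.1 FPKM in H18 against 10.7 FPKM in CON, a log2 difference of 2.40. The other fibronectin gene, fn1b, had the opposite direction, with 16 FPKM in H18 against 37.6 FPKM in CON. The membrane protease adam8a had 79.1 FPKM in H18 against 0.783 FPKM in CON. The annexin anxa2a, a membrane-binding protein used in repair, had 244 FPKM in H18 against 56.2 FPKM in CON. Among the lower genes, the hyaluronan link protein hapln1a had 0.875 FPKM in H18 against 41.7 FPKM in CON, sparc, a collagen-binding protein, had 35 FPKM in H18 against 135 FPKM in CON, and the gelatinase gene mmp2 had 5.11 FPKM in H18 against 30.4 FPKM in CON.

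The collagens were divided, with 4 of 24 higher and 8 lower (median -0.45, 49 listed). The fibrillar chains col1a1b and col1a2 were nearly equal, with 39.1 FPKM in H18 against 39.1 FPKM in CON for col1a1b and 42 FPKM in H18 against 39.8 FPKM in CON for col1a2. Col12a1a, a chain that sits on the fibril surface, had 15.6 FPKM in H18 against 3.99 FPKM in CON. The 3 collagen VI genes, which encode a pericellular network around muscle fibres, were all lower, with a sum of 11.9 FPKM in H18 and 37.9 FPKM in CON. Of 18 integrin chains that passed, which are receptors for matrix and for other cells, 7 were higher and 3 lower. The 3 with the highest difference were itgb7, itga4 and itgb3a. Itgb7 had 17.3 FPKM in H18 against 0.648 FPKM in CON, itga4, its partner chain, had 17.5 FPKM in H18 against 1.6 FPKM in CON, and itgb3a had 4.84 FPKM in H18 against 0.0355 FPKM in CON.

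Some genes of the general cytoskeleton, picked after their values were seen and so no measure of the cytoskeleton as a whole, were also measured. Profilin, pfn1, which supplies actin monomers, had 469 FPKM in H18 against 95.9 FPKM in CON. The Arp2/3 subunit arpc1b, which branches actin filaments, had 93.5 FPKM in H18 against 12.6 FPKM in CON. The alpha-tubulin gene tuba8l4 had 168 FPKM in H18 against 31.4 FPKM in CON, and the capping protein capgb, found in macrophages of other species, had 42.8 FPKM in H18 against 3.19 FPKM in CON. The intermediate filament vimentin, vim, lay within 2-fold with 10.8 FPKM in H18 against 16.4 FPKM in CON.

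Most genes of DNA replication were higher. Of 56 that passed, 38 were higher and none was lower (median 1.68, 86 listed). The replicative helicase had all 6 MCM genes higher, with a sum of 65 FPKM in H18 against 9.66 FPKM in CON. Mcm2 had 15 FPKM in H18 against 2.02 FPKM in CON, and mcm3 had 7.68 FPKM in H18 against 0.679 FPKM in CON. The chaperone chaf1a, which places histones behind the fork, had 5.81 FPKM in H18 against 0.133 FPKM in CON, the highest log2 difference of the list (4.66). Thymidylate synthase, tyms, had 6.09 FPKM in H18 against 0.414 FPKM in CON. The sliding clamp pcna, which has roles in repair as well, was higher in level but within 2-fold, with 42 FPKM in H18 against 23.4 FPKM in CON. Most of these levels were low, and a pseudocount of 1 FPKM brought the median to 0.99.

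Genes of mitosis were near the limit of the filter. Of 80 listed genes only 24 passed, of which 14 were higher and 3 lower (median 1.38, or 0.78 with H18 scaled by 0.834 and 1.92 with H18 scaled by 1.33). The kinase gene cdk1, which drives entry into mitosis, had 3.41 FPKM in H18 against 0.528 FPKM in CON, and the proliferation antigen mki67 had 3.29 FPKM in H18 against 0.835 FPKM in CON. Ccna2, a cyclin of S and G2 phase, lay within 2-fold with 2.31 FPKM in H18 against 1.87 FPKM in CON. The chromatin protein hmgb2b, common in dividing cells, had 23.6 FPKM in H18 against 7.71 FPKM in CON. On the other side birc5b was listed at 0 in H18 and at 7.16 FPKM in CON.

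Chromatin regulators showed little net difference, with 22 of 130 higher and 15 lower of 164 listed, and a median of 0.10, which was -0.16 with H18 scaled by 0.834 and 0.50 with H18 scaled by 1.33. Polycomb repressive complex 2, which methylates lysine 27 of histone H3, had none of its 6 genes past 2-fold. Its catalytic subunit ezh2, on chromosome 24 at 17201116 to 17220035 of GRCz10, had 2.32 FPKM in H18 against 1.12 FPKM in CON, a log2 difference that lay just under the limit and was past it with a pseudocount of 0.01 FPKM or with H18 scaled by 1.33. Its core subunit suz12a, on chromosome 3 at 35719834 to 35735965, had 2.13 FPKM in H18 against 1.77 FPKM in CON, a log2 difference of 0.25. Enzymes past the limit included the maintenance methyltransferase dnmt1, with 5.11 FPKM in H18 against 1.01 FPKM in CON, and the arginine methyltransferase prmt1, with 48.8 FPKM in H18 against 19.4 FPKM in CON. The remodelling ATPases smarca4a and smarca5 were higher, with 9.35 FPKM in H18 against 1.94 FPKM in CON for smarca4a and 11.6 FPKM in H18 against 3.53 FPKM in CON for smarca5. The mitochondrial deacetylase sirt3, listed here by family, had 0.117 FPKM in H18 against 5.86 FPKM in CON.

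Early response factors had 19 higher and 22 lower of 76 (median -0.18, 95 listed). These shares, 25% and 28.9%, were close to the 22.6% and 27.4% of all genes. Within the AP-1 family, which binds DNA as pairs of Fos and Jun proteins, members took both sides. Fosl1a had 8.82 FPKM in H18 against 1.06 FPKM in CON, and junba had 21 FPKM in H18 against 5.65 FPKM in CON, whereas jund had 10.2 FPKM in H18 against 45.7 FPKM in CON. The immediate early genes egr1 and nr4a1 were lower, with 5.35 FPKM in H18 against 16.2 FPKM in CON for egr1 and 7.2 FPKM in H18 against 47.2 FPKM in CON for nr4a1. The Myc gene mych, a growth regulator, had 17.8 FPKM in H18 against 1.88 FPKM in CON. The acute phase factor cebpb lay within 2-fold, with 59.7 FPKM in H18 against 30.2 FPKM in CON.

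Genes of growth factor pathways were more often lower, with 53 of 122 lower and 13 higher (median -0.73, 252 listed). All 8 Igf binding proteins that passed, which hold insulin-like growth factors outside the cell, were lower, with a sum of 18.6 FPKM in H18 and 119 FPKM in CON. Igfbp5a had 3.38 FPKM in H18 against 40.8 FPKM in CON, and the clearance receptor igf2r had 27.6 FPKM in H18 against 7.01 FPKM in CON. Myostatin, mstnb, which restrains muscle growth in mammals, had 0.358 FPKM in H18 against 4.54 FPKM in CON. The follistatin-like gene fstl1a had 12.4 FPKM in H18 against 76.1 FPKM in CON. Among Wnt ligands, wnt2bb had 4.55 FPKM in H18 against 0.486 FPKM in CON. The feedback phosphatase dusp5, which acts on Erk, had 6.75 FPKM in H18 against 2.25 FPKM in CON.

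The circadian clock genes were lower more often than higher, with 24 of 38 lower and 2 higher (median -1.29, 45 listed). The hour of day at which each group was sampled is not given, so time of day and injury cannot be told apart for them. The repressor nr1d1 had 1.17 FPKM in H18 against 5.33 FPKM in CON, rorca, its opponent at the same DNA element, had 3.25 FPKM in H18 against 23.8 FPKM in CON, and the light-responsive per2 had 2.61 FPKM in H18 against 6.87 FPKM in CON. Genes of the p53 pathway and cell death had 13 of 46 higher and 10 lower, of 53 listed, and their median of 0.26 was -0.04 with H18 scaled by 0.834 and 0.65 with H18 scaled by 1.33. The survival gene mcl1b had 80.7 FPKM in H18 against 32.9 FPKM in CON, the necroptosis kinase relative ripk3l had 8.66 FPKM in H18 against 1.15 FPKM in CON, and tp53inp1 had 0.84 FPKM in H18 against 11.1 FPKM in CON. Antioxidant genes were near balance, with 16 of 54 higher and 13 lower (median -0.18, 63 listed). Heme oxygenase, hmox1a, which breaks down heme, had 30.3 FPKM in H18 against 1.57 FPKM in CON. Ferritin heavy chain, fth1a, which stores iron, had 597 FPKM in H18 against 224 FPKM in CON, and the mitochondrial superoxide dismutase sod2 had 7.18 FPKM in H18 against 52 FPKM in CON. Of 16 sterol genes that passed, 5 were lower and 1 was higher (median -0.56, 30 listed). The rate-limiting reductase gene hmgcrb had 6.07 FPKM in H18 against 3.38 FPKM in CON, and the lipoprotein receptor ldlra had 0.311 FPKM in H18 against 2.41 FPKM in CON.

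The largest differences of single genes, among 2338 with at least 10 FPKM in the higher group, were mostly those of microRNA hairpins. Hairpins made up 28 of the 2338 genes but 9 of the 15 with the highest and 11 of the 15 with the lowest difference. Mir133b, a microRNA of muscle, was listed at 0 in H18 and at 370.1 FPKM in CON, and mir1-2, another, was listed at 0 in H18 and at 106 FPKM in CON. In the other direction, mir23a-1 was listed at 285 FPKM in H18 and at 0 in CON, and mir21-1 at 32.9 FPKM in H18 and at 0 in CON. Among the 28 hairpins, 11 were listed at 0 in H18 and 8 at 0 in CON. Their listed loci ran from 84 to 233321 bases, and that of mir1-2 spanned 87107 bases. Where a listed locus is that long, reads of other genes inside it cannot be told apart. These libraries were made from total RNA and not from small RNA, so the values do not measure the mature microRNAs. How far the FPKM of the short features depends on a few fragments was not tested.

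Among the genes at the 2 ends other than hairpins, the higher side held proteases and transporters. Cathepsin S gene ctssb.1 had 361 FPKM in H18 against 7.09 FPKM in CON, and slc43a2b, an amino acid transporter, had 63.1 FPKM in H18 against 0.558 FPKM in CON. Slc7a7, a transporter of cationic amino acids that in zebrafish marks microglia and macrophages, had 44.6 FPKM in H18 against 0.499 FPKM in CON. Havcr1, a receptor for dying cells in mammals, had 48.6 FPKM in H18 against 1.16 FPKM in CON, and gda, which breaks down guanine, had 31.5 FPKM in H18 against 0.733 FPKM in CON. The lower side held the eye genes rho, rbp4l and crybb2 as well as genes of fibre and mitochondrion. Pdp1, which activates pyruvate dehydrogenase, had 0.231 FPKM in H18 against 19.4 FPKM in CON, and the adenine nucleotide carrier slc25a4 of muscle mitochondria had 13.6 FPKM in H18 against 667 FPKM in CON. Bves, a membrane protein of muscle, had 0.472 FPKM in H18 against 25.1 FPKM in CON, and dio3a, which inactivates thyroid hormone, had 0.0908 FPKM in H18 against 13.8 FPKM in CON. Myoz1b, a Z-disc protein, had 1.53 FPKM in H18 against 89.5 FPKM in CON.

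Features seen in 1 group only were more often those of CON. A level of at least 1 FPKM in H18 with 0 in CON was listed for 120 features, 19 of them with at least 10 FPKM. The reverse was listed for 280 features, 37 of them with at least 10 FPKM. Of the 120, 29 were protein-coding, 9 were microRNAs and 5 were long non-coding RNAs, and of the 280 these numbers were 147, 23 and 10. Another 75 of the 120 and 98 of the 280 had no match in the reference and so no class, which limits a comparison of these numbers. Over all features, 6502 were listed at 0 in H18 and 5699 in CON, and 4298 in both. Depth per library is unknown, and the few features with the highest FPKM held 94.9% of the summed FPKM in H18 against 86.4% in CON. How far the counts of zeros depend on either was not tested.

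The spread of the differences depended on the level of the gene. Of the 6240 genes that averaged 1 to 3 FPKM, 19.9% were higher and 25.7% lower in H18, whereas of the 430 that averaged 30 to 100 FPKM, 28.8% were higher and 41.6% lower. Of the 289 that averaged 100 FPKM or more, 18.3% were higher and 41.5% lower. By annotated class, 12133 protein-coding genes had 2682 higher and 3202 lower, and 119 long non-coding RNAs had 37 higher and 45 lower (median -0.53). The share of higher genes per chromosome ran between 17.2% on chromosome 13 and 30.2% on chromosome 25, and the share of lower genes between 22.5% on chromosome 19 and 31.2% on chromosome 24. Protein-coding genes that were higher had a median span of 16407 bases, those that were lower 19426 bases and those within 2-fold 20946 bases. Close to the limit, 1113 genes lay within 0.1 log2 of 2-fold, of which 523 were called, so the counts given here move with small differences in level.

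Set beside the 9 h group, several of these differences were not a steady course. The 9 h and 18 h groups share the CON libraries, so their differences from CON are not independent. The levels of npm1a were 5.47 FPKM at 0 h, 102 FPKM at 9 hpi and 59.1 FPKM at 18 hpi, with the middle group highest. Ezh2 had 1.12 FPKM at 0 h, 2.96 FPKM at 9 hpi and 2.32 FPKM at 18 hpi, the same order. For mcm2 and pcna the 9 h level was near or below that of CON. The levels of mcm2 were 2.02, 2.91 and 15 FPKM at 0, 9 and 18 h, and those of pcna were 23.4, 8.64 and 42 FPKM, with the 9 h level the lowest of the 3. The lysosomal gene ctsba had an intermediate value at 9 hpi, with 19.2, 167 and 849.6 FPKM at 0, 9 and 18 h. Fabp11a was near its CON level at 9 hpi, with 60.8, 86 and 701 FPKM at 0, 9 and 18 h, and fn1a had 10.7, 14.8 and 57.1 FPKM. The fibre gene atp2a1 had 3434, 319 and 109.6 FPKM at 0, 9 and 18 h, with most of the difference present at 9 hpi.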

How the data were processed

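RNA from ribosomal-depleted total RNA of LR muscle was sequenced in 5 H18, 4 CON and 5 H9 libraries, prepared with a stranded kit per the labels. Per the submitters' processing notes, FastQC 0.11.3, TopHat2 2.0.13, Bowtie2 2.2.1 and Cuffdiff 2.2.1 were used with GRCz10. The authors made the FPKM with CuffDiff, with multi-read correction and with compatible-hits and upper-quartile normalization, and the deposited tables give each feature 1 such value for a group, over its libraries. Whether strand was used in the counting is not given in the sources used here, so a gene and an overlapping or antisense partner cannot be told apart. Columns of the same tables with the authors' own fold changes, p-values, q-values and status were not used. The count table, with 14 columns, was left out as well, because its column names matched no library, so depth per library is unknown here and the planned tests over libraries were not run.

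Log2 differences were computed with a pseudocount of 0.1 FPKM over genes that averaged 1 FPKM or more in H18 and CON, and a gene was called at 2-fold. The members and the 36 gene lists were chosen with earlier results of these data known. Lists were matched by symbol and are described by counts and medians of the members that passed, while summed FPKM include members below 1 FPKM. Genes were picked by a rule, and not all of those picked are given above. The rule took the 15 with the highest and the 15 with the lowest difference. These were drawn from genes with at least 10 FPKM in the higher group and a proper symbol. In each list it took the 3 with the highest mean and those with the highest and lowest difference. It also took the 3 features with the highest FPKM in each group, and ezh2, suz12a and fn1a. Other genes named, the protein families, the subgroups of lists and 4 of the alternatives were chosen after values had been seen. Gene symbols were those of the deposited data. Classes came from a RefSeq table of the GRCz12tu assembly, matched by Entrez identifier for 24823 of 31014 features. 51 features had no symbol. Start positions are counted from 1. The computation was tested on simulated data. Alternatives were other pseudocounts, filters and fold limits, centring on the median, scaling to equal sums without the 3 features with the highest FPKM in either group, leaving out features with a group at 0 and, added later, features that span under 300 bases, protein-coding genes only, genes in a single list and scaling to equal protein-coding sums. Python 3.11.15, numpy 2.4.6, pandas 2.3.3 and matplotlib 3.10.9 were used.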

Additional observations from a re-analysis of the deposited data

How the results depend on the processing

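No paired analysis was possible because the columns of the count table carry no library or replicate names and the FPKM hold 1 value per group. For the same reason no library could be left out, and the planned tests on counts, with other normalizations and filters, were not run. Of 395 alternative values of list medians, 383 moved by less than 1.5-fold. For the 18 lists with a median of at least 1 in size, 197 of 198 alternative medians kept the sign, and of the 197 of the other lists 12, in 7 lists, had the other sign. Centring and the 2 scalings shift nearly all log2 values by about the same amount, each below 1.5-fold. Under them a median could hardly count as moved, or change sign in the 18 lists, so these counts are no test of the scaling. At a pseudocount of 1 FPKM the median was, on the log2 scale, -2.15 for the sarcomere, 0.99 for DNA replication, -2.51 for retina and lens and -1.77 for pancreas and gut. With no filter on low values it was -1.90 for retina and lens, -2.05 for pancreas and gut and -1.10 for glia and nerve. With a mean of at least 5 FPKM it was 0.49 for early response factors, -1.37 for growth factor pathways and -0.43 for p53 and cell death, and 4.13 for pancreas and gut, where apoc1l alone was left. With H18 scaled by 0.834 it was 0.78 for mitosis. Totals were 5691 higher and 6551 lower with no filter, 1199 and 1386 with a mean of at least 5 FPKM, and 1108 and 1790 at 4-fold. Of 934 alternative counts of list members, 176 moved by over 1.5 times. Of the 217 genes picked by the rule, 176 were past 2-fold. Of these, 9 were within 2-fold with H18 scaled by 0.834, 4 with H18 scaled by 1.33 and 1 with a pseudocount of 1 FPKM. None reversed, but these alternatives could not reverse a gene past 2-fold. Levels of short features and of genes near 1 FPKM are the least certain, and the depth behind each value is unknown.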

Other observations

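Some genes of amino acid and polyamine supply were also measured. They were chosen after their values were seen and are part of no list above, and 2 of them lay within 2-fold. The heavy chain slc3a2a, which carries several amino acid exchangers to the cell surface, had 41 FPKM in H18 against 2.84 FPKM in CON, and its partner slc7a5, a transporter of large neutral amino acids, had 9.88 FPKM in H18 against 2.24 FPKM in CON. The paralog slc3a2b lay within 2-fold, with 14.6 FPKM in H18 against 12.1 FPKM in CON. Shmt2, which makes one-carbon units in mitochondria, had 6.38 FPKM in H18 against 0.533 FPKM in CON, and odc1, the first enzyme of polyamine synthesis, had 29.5 FPKM in H18 against 7.20 FPKM in CON. Arg2, which cleaves arginine, was lower with 8.81 FPKM in H18 against 45.5 FPKM in CON. Asns, which makes asparagine and is a target of the amino acid response in mammals, was listed at 5.7 FPKM in H18 and 6.02 FPKM in CON. The oxygen-binding protein of the fibre and a lipid carrier were lower, with 6.62 FPKM in H18 against 45.5 FPKM in CON for myoglobin, mb, and 40.4 FPKM in H18 against 149 FPKM in CON for fabp3, a fatty acid binding protein of muscle.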
